A study of Arabidopsis thaliana with 12 samples.

Results

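The genes HY5, HYH, COP1, SPA1, CRY1, PIF1, PIF3, PIF4, PIF5 and PIF7 carry light signals in Arabidopsis thaliana from a photoreceptor to transcription. They were taken by locus identifier from an expression table of 32833 genes, with no threshold on any measured value, and all 10 were found. These genes and the gene lists used below were chosen with earlier results of these data known. Their shares and medians beside those of all genes are therefore descriptive. The study compared leaves of Col-0, the reference accession, with leaves of tpt-2, a mutant line in TPT, which encodes the translocator that exports triose phosphate from the chloroplast. Plants of both genotypes were 21 d of age, grown in soil under a 10 h light period, and were moved into light of 500 µmol photons m-2 s-1 when a night ended. Leaves were harvested after 9 h or 18 h under it; each of the 4 groups had 3 biological replicates, which makes 12 libraries of polyadenylated RNA. All 4 groups had been shifted to the strong light, and no group kept in growth light was part of the comparison. The later harvest also fell after the usual 10 h of light, so hours in strong light and time of day cannot be told apart. The mutant is represented by 1 line.

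In darkness, the COP1 ubiquitin ligase, working with SPA proteins, marks the bZIP transcription factor HY5 and its homolog HYH for degradation, while phytochrome-interacting factors (PIFs), a group of bHLH transcription factors, drive elongation growth. Light acting through phytochromes and cryptochromes such as CRY1 restrains COP1 and removes or inhibits most PIFs, so that HY5 accumulates and turns on genes for flavonoid and photoprotective functions. Much of this regulation acts on the proteins, which transcript levels do not show.

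Expression was given as FPKM, fragments per kilobase of transcript and 1e06 fragments, a per-length unit in which levels of different genes can be set side by side. The recovered depth reached 25.6 M fragments (M, 1e06) for Col-0 replicate 1 at 18 h and 12.3 to 14.3 M for the other 11 libraries. TPT stood at 328 to 465 FPKM in the 6 Col-0 libraries and at 2.52 to 3.85 FPKM in the 6 tpt-2 libraries. Summed leaf markers (RBCS1A, LHCB1.1 and RCA) reached 20800 to 28500 FPKM in every library, and RBCS1A made up most of that sum. The other leaf markers were not level with time. From 9 h to 18 h, mean LHCB1.1 went from 619 to 62.4 FPKM in Col-0 and from 732 to 158 FPKM in tpt-2. Mean RCA went from 2380 to 5690 FPKM and from 3240 to 5070 FPKM. Of the root markers, PYK10 made up nearly all of the 148 to 350 FPKM, and the other root markers together stayed at or under 0.124 FPKM. Single measures set 2 libraries apart: chloroplast-encoded transcripts took 3.22% of all FPKM in tpt-2 replicate 3 at 9 h against 0.342% to 0.672% in the other tpt-2 libraries and 0.0507% to 0.0721% in Col-0, and seed storage transcripts (CRC and OLEO1) summed to 6.68 FPKM in Col-0 replicate 2 at 18 h against at most 0.0429 FPKM elsewhere.

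Differences were tested with limma on log2(FPKM + 1) over the 17585 genes whose mean reached 1 FPKM, all 10 light signalling genes among them. A gene was called at a Benjamini-Hochberg adjusted p under 0.05, and every adjusted p below comes from that fit unless another setting is named. At 9 h, 3 of the 10 genes were called between the genotypes, all higher in tpt-2 (CRY1, PIF1 and PIF4), against 22.3% of all genes tested, 13.6% called higher and 8.72% called lower. At 18 h, 2 of the 10 were called, both higher in tpt-2 (PIF4 and PIF5), against 2.88% of all genes, 2.0% called higher and 0.881% called lower. From 9 h to 18 h in Col-0, 7 of the 10 were called against 28.7% of all genes: 4 rose (13.1% of all genes did) and 3 fell (15.5%). Over the same interval in tpt-2, 6 of the 10 were called against 23.4% of all genes: 2 rose (12.1%) and 4 fell (11.3%). The balance of calls between the genotypes depended on the scaling: 60.8% of all calls at 9 h and 69.4% at 18 h were higher in tpt-2, against 41.0% and 35.8% with median-ratio scaling. The bulk leaf samples do not separate fewer cells of a type from less RNA per cell, which applies to every level given here.

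**Figure D1:**
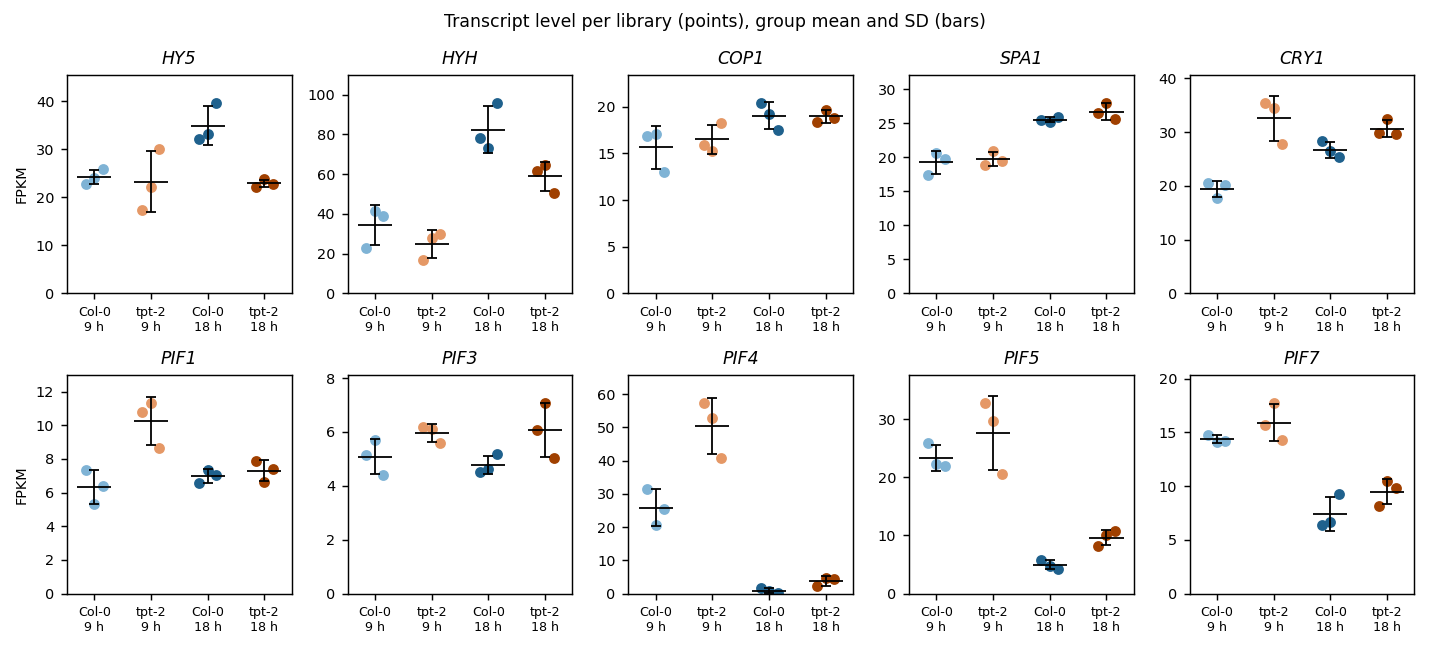
FPKM (y axis, starting at 0, a separate scale per gene) of each light signalling gene in the 12 libraries; points are libraries, the horizontal bar is the group mean and the vertical bar is 1 SD (n = 3). HYH rose from 34.3 to 82.3 FPKM in Col-0 between 9 h and 18 h, while PIF4 fell from 25.9 to 0.864 FPKM.

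Among the transcription factors that promote light responses, HY5 (AT5G11260, chr5:3593335-3595073, minus strand) measured 22.8, 24.0 and 25.8 FPKM in Col-0 at 9 h and 17.4, 22.2 and 30.0 FPKM in tpt-2 at 9 h, with overlapping groups. At 18 h it measured 32.1, 33.1 and 39.6 FPKM in Col-0 and 22.1, 23.7 and 22.8 FPKM in the mutant. Every Col-0 library at 18 h lay above every other HY5 value, and the tpt-2 libraries at 18 h lay within the range of the tpt-2 libraries at 9 h. In Col-0, HY5 rose 1.44-fold from 24.2 ± 1.51 to 35.0 ± 4.08 FPKM (SD, n = 3), a log2 difference of 0.51 (SE 0.151, limma adjusted p = 0.0251). That call was lost without Col-0 replicate 1 or 2 at 9 h (adjusted p = 0.0775 and 0.0633) or Col-0 replicate 2 or 3 at 18 h (adjusted p = 0.0509 and 0.0963). In tpt-2 the levels were 23.2 ± 6.32 FPKM at 9 h and 22.9 ± 0.80 FPKM at 18 h (SD, n = 3), a log2 difference of 0.01 with a 95% interval of -0.32 to 0.34 and adjusted p = 0.966 by limma. At 18 h the tpt-2 level was 0.59 below Col-0 on the log2 scale (difference -0.59, SE 0.151), with limma adjusted p = 0.0596, which missed the threshold although the groups did not overlap. The difference between the genotype effects at the 2 harvests was -0.50 on the log2 scale (SE 0.214, adjusted p = 0.203 by limma), so the HY5 responses of the genotypes were not shown to differ. The 18 h difference passed the threshold in 8 of 21 other settings, among them limma-voom on recovered fragments (adjusted p = 0.0478) and the fits without tpt-2 replicate 1 (0.0259) or replicate 3 (0.0137) at 9 h. Those 2 libraries enter the 18 h test only through the spread shared by the groups, and the difference stayed at -0.59 without either. No fit that left out an 18 h library passed.

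HYH, the HY5 homolog (AT3G17609, chr3:6023844-6024710, plus strand), was the more abundant of the pair at 18 h. In Col-0 its level was 22.9, 41.3 and 38.8 FPKM at 9 h and 78.0, 73.3 and 95.7 FPKM at 18 h. For tpt-2 the corresponding values were 17.0, 27.9 and 30.1 FPKM, then 61.3, 64.8 and 50.7 FPKM. All 18 h libraries exceeded all 9 h libraries in both genotypes, and at 18 h every tpt-2 library lay under every Col-0 library. HYH rose 2.40-fold in Col-0 (log2 difference 1.27, SE 0.234, limma adjusted p = 0.00175) and 2.36-fold in tpt-2 (1.24, SE 0.234, adjusted p = 0.00256). The difference between those changes was -0.03 on the log2 scale, with a 95% interval of -0.76 to 0.69 (limma adjusted p = 0.97). Between the genotypes HYH was not called at 9 h (log2 difference -0.44, limma adjusted p = 0.202) or at 18 h (-0.47, adjusted p = 0.274). Leaving out Col-0 replicate 1 at 9 h, the lowest HYH value of its group, gave -0.70 with a limma adjusted p of 0.0396. The ratio of HYH to HY5 was 1.0, 1.72 and 1.5 in Col-0 and 0.974, 1.26 and 1.0 in tpt-2 at 9 h, and 2.43, 2.21 and 2.42 in Col-0 and 2.77, 2.73 and 2.22 in tpt-2 at 18 h. All 6 libraries at 18 h thus had a higher ratio than all 6 at 9 h, while the genotypes overlapped at both harvests; the ratio was not tested.

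The 300 bases before the annotated starts of HY5 and HYH are printed because bZIP factors of this family bind sequences with an ACGT core and PIFs bind the G-box (CACGTG) and the PBE-box (CACATG). Sequences are from the TAIR10.1 assembly with RefSeq gene starts and run 5′ to 3′ on the strand of the gene, from chr5:3595074-3595373 (minus) for HY5 and chr3:6023544-6023843 (plus) for HYH. Capitals mark the ACGT core, the G-box and the PBE-box, each searched on both strands; every G-box contains an ACGT core.
HY5: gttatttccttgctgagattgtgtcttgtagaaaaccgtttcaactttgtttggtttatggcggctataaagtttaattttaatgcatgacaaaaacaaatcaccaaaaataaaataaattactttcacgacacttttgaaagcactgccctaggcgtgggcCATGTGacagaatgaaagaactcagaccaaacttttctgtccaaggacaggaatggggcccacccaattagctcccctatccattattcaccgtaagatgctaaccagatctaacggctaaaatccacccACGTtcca
HYH: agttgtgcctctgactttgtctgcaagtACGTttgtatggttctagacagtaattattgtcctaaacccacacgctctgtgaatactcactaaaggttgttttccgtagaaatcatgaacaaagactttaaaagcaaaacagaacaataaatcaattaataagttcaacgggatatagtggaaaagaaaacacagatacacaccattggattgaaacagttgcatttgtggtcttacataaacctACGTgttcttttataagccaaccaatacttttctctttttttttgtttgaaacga
An ACGT core was found in this window of 7 of the 10 genes (HY5, HYH, COP1, SPA1, PIF4, PIF5 and PIF7) and in 49.0% of 27437 promoters of protein-coding genes. The HY5 window holds 1 such core, starting 8 bases before the gene start, and a PBE-box from 138 to 133 bases before it, a motif found in 13.1% of promoters and in no other of the 10 genes. In HYH, 2 cores start 272 and 55 bases before the gene. Such matches describe these letters only.

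COP1 (AT2G32950, chr2:13977881-13983609, plus strand), the ubiquitin ligase that targets HY5, was called in no comparison. Its libraries ranged from 13.0 to 17.1 FPKM in Col-0 and 15.3 to 18.3 FPKM in the mutant at 9 h, and from 17.5 to 20.4 FPKM in Col-0 and 18.4 to 19.7 FPKM in the mutant at 18 h. The group means were 15.7 ± 2.33, 16.5 ± 1.55, 19.0 ± 1.43 and 19.0 ± 0.691 FPKM in that order (SD, n = 3). Libraries of 9 h and 18 h did not overlap in either genotype, but the log2 differences of 0.27 in Col-0 and 0.19 in tpt-2 had limma adjusted p = 0.0804 and 0.23. At 18 h the genotypes differed by less than 0.01 on the log2 scale, with a 95% interval of -0.24 to 0.23.

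SPA1, the COP1 partner (AT2G46340, chr2:19022154-19027528, minus strand), rose with time in both genotypes. Col-0 libraries held 17.4, 20.6 and 19.8 FPKM at 9 h and 25.5, 25.2 and 26.0 FPKM at 18 h. Those of tpt-2 held 18.9, 20.9 and 19.5 FPKM, then 26.6, 28.0 and 25.6 FPKM. No 18 h library overlapped a 9 h library, and the genotypes overlapped at both harvests. The rise was 1.33-fold in Col-0 (log2 difference 0.39, SE 0.076, limma adjusted p = 0.00236) and 1.35-fold in tpt-2 (0.42, adjusted p = 0.00199). Of 12 other genes for the COP1 and CUL4 ligase complexes and their regulators, 4 rose and 1 fell in Col-0 and 3 rose and 1 fell in tpt-2, with median log2 differences of 0.05 and 0.08 against -0.01 and 0.00 over all genes. Of all genes, 13.1% rose and 15.5% fell in Col-0, and 12.1% rose and 11.3% fell in tpt-2. SPA4 rose 2.73-fold in Col-0 and 2.1-fold in tpt-2, and SPA3 rose 2.06-fold and 1.90-fold (limma adjusted p from 6.56e-06 to 5.72e-05). RUP2, which returns the UV-B receptor UVR8 to its inactive form, rose 3.0-fold in Col-0 and 1.97-fold in tpt-2 (adjusted p = 0.000588 and 0.0107 by limma). Between the genotypes, 1 of the 12 was called at 9 h and 0 at 18 h, against 22.3% and 2.88% of all genes. The gene called was COP10, a ubiquitin-conjugating enzyme variant, at 9.11 FPKM in Col-0 and 13.6 FPKM in the mutant (limma adjusted p = 0.00353).

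The blue-light photoreceptor CRY1 (AT4G08920, chr4:5723651-5727268, plus strand) was higher in the mutant at 9 h. Its values at 9 h were 20.5, 17.7 and 20.1 FPKM in Col-0 and 35.4, 34.5 and 27.8 FPKM in the mutant. At 18 h they were 28.3, 26.4 and 25.4 FPKM in Col-0 and 29.9, 32.4 and 29.6 FPKM in the mutant. The genotypes did not overlap at either harvest, and Col-0 at 9 h was the lowest group. The 1.67-fold difference at 9 h (19.5 ± 1.5 against 32.6 ± 4.12 FPKM, SD, n = 3; log2 difference 0.71, SE 0.0965, limma adjusted p = 0.00056) was called in all 21 other settings. At 18 h the log2 difference was 0.19 with a 95% interval of -0.02 to 0.40 (limma adjusted p = 0.286). CRY1 rose 1.37-fold with time in Col-0 (log2 difference 0.44, adjusted p = 0.00517 by limma) and had a log2 difference of -0.08 in tpt-2 (adjusted p = 0.606). The genotype effect was 0.52 smaller at 18 h (difference -0.52, SE 0.136), and limma's adjusted p of 0.052 missed the threshold. Without tpt-2 replicate 3 at 9 h, the library rich in chloroplast-encoded transcripts and the lowest of its group for CRY1, that difference was -0.63 with an adjusted p of 0.0183.

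Of 12 other photoreceptor genes, 5 were called higher in tpt-2 at 9 h, 0 lower and 7 not called, with a median log2 difference of 0.31 against 0.07 over all genes. The shares over all genes were 13.6% higher and 8.72% lower. Without Col-0 replicate 2 or tpt-2 replicate 1 or 2 at 9 h, 3 photoreceptor genes were called, as with median-ratio scaling or only the 9 h libraries. PHYA, the far-red receptor, stood at 7.69 FPKM in Col-0 and 12.7 FPKM in the mutant (limma adjusted p = 0.00194), and CRY2, the second cryptochrome, at 39.3 and 61.5 FPKM (adjusted p = 0.00223). FHY1, which carries phytochrome A into the nucleus, stood at 5.27 and 10.9 FPKM (limma adjusted p = 0.000807). At 18 h limma called 0 of the 12 photoreceptor genes, as did limma-voom, and their median difference was 0.13 against 0.09 over all genes. The share of all genes called at 18 h was 2.88%. Between 9 h and 18 h, FKF1, a blue-light receptor of the flowering pathway, fell 8.11-fold in Col-0 and 7.89-fold in tpt-2 (adjusted p = 5.92e-07 and 3.87e-07 by limma). PHYB, the main red-light receptor, rose 1.34-fold in Col-0 (limma adjusted p = 0.00512), and its means in tpt-2 were 21.6 FPKM at 9 h and 27.9 FPKM at 18 h. UVR8 fell 1.29-fold in tpt-2 (limma adjusted p = 0.000829), and its means in Col-0 were 77.2 and 59.4 FPKM. Both genes thus moved in the same direction in both genotypes.

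**Figure D2:**
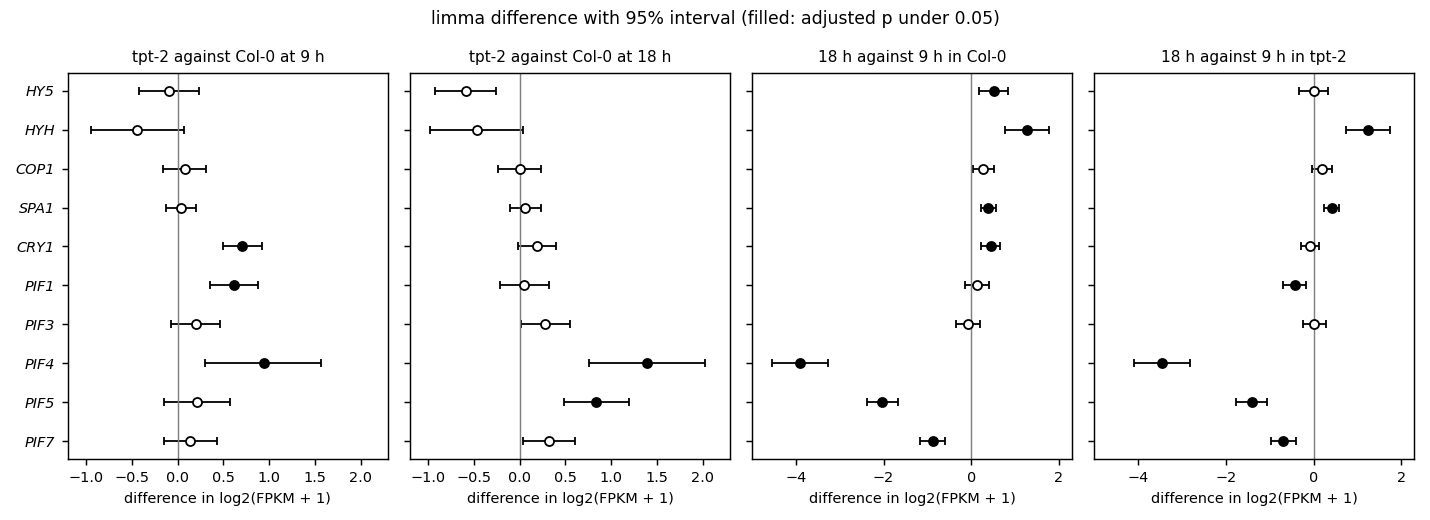
Differences in log2(FPKM + 1) for the 10 genes in 4 comparisons, with 95% intervals from limma; filled points are called, and the x axes of the left and right pairs of panels differ in range. CRY1, PIF1 and PIF4 are filled at 9 h, PIF4 and PIF5 at 18 h, and the changes with time of PIF4 (-3.91 in Col-0 and -3.45 in tpt-2) are the farthest from 0.

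Of the PIFs, PIF4 (AT2G43010, chr2:17886101-17889087, plus strand), which promotes elongation in warmth and shade, had the widest range. At 9 h it measured 31.5, 20.6 and 25.5 FPKM in Col-0 and 57.2, 52.7 and 40.9 FPKM in the mutant. At 18 h it measured 1.60, 0.831 and 0.158 FPKM in Col-0, from 84, 23 and 4 recovered fragments. The tpt-2 libraries at 18 h measured 2.19, 4.84 and 4.38 FPKM, from 55, 127 and 115 fragments. The genotypes did not overlap at either harvest, and all 18 h libraries lay far below all 9 h libraries. With time, mean PIF4 fell 29.9-fold in Col-0 (difference in log2(FPKM + 1) -3.91, SE 0.291, limma adjusted p = 3.79e-06) and 13.2-fold in tpt-2 (-3.45, adjusted p = 7.42e-06).

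Between genotypes, PIF4 was 1.94-fold higher in tpt-2 at 9 h (25.9 ± 5.44 against 50.3 ± 8.41 FPKM, SD, n = 3; log2 difference 0.94, SE 0.291, limma adjusted p = 0.0383). That call ended on leaving out Col-0 replicate 2 (adjusted p = 0.125) or 3 (0.0733) at 9 h, tpt-2 replicate 1 (0.124) or 2 (0.106) at 9 h, or Col-0 replicate 2 at 18 h (0.0535). It also ended with a pseudocount of 0.1 (0.96, limma adjusted p = 0.218), no filter on low values (0.0681) or median-ratio scaling (0.85, adjusted p = 0.0555). The 9 h call held in 12 of 21 other settings, among them the fit of only the 9 h libraries. Without tpt-2 replicate 3 at 9 h, the lowest PIF4 value of its group, the difference was 1.08 (limma adjusted p = 0.037). At 18 h PIF4 was 4.40-fold higher in tpt-2 (0.864 ± 0.722 against 3.80 ± 1.41 FPKM, SD, n = 3; difference in log2(FPKM + 1) 1.39, SE 0.291, limma adjusted p = 0.0297). A smaller pseudocount of 0.1 raised this difference to 2.32 (limma adjusted p = 0.0417). The 18 h call ended on leaving out Col-0 replicate 2 (adjusted p = 0.0975) or 3 (0.114), or tpt-2 replicate 2 (0.107) or 3 (0.0687), in limma-voom (2.2, adjusted p = 0.0877), with no filter (0.057), and in a fit of only the 18 h libraries (0.0702). Col-0 replicate 2 at 18 h is the library with seed storage transcripts, whose part in the result was not tested. The genotype effects at 18 h and 9 h differed by 0.46 on the log2 scale, with a 95% interval of -0.44 to 1.35 and adjusted p = 0.578 by limma.

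PIF5, the closest relative of PIF4 in this group (AT3G59060, chr3:21827905-21830837, minus strand), measured 25.9, 22.2 and 21.9 FPKM in Col-0 and 32.7, 29.6 and 20.5 FPKM in the mutant at 9 h. Its 18 h values were 5.86, 4.73 and 4.32 FPKM in Col-0 and 8.14, 10.0 and 10.7 FPKM in the mutant. The genotypes overlapped at 9 h through tpt-2 replicate 3, and at 18 h every tpt-2 library was above every Col-0 library. PIF5 fell 4.69-fold with time in Col-0 (log2 difference -2.03, SE 0.164, limma adjusted p = 6.11e-06) and 2.87-fold in tpt-2 (-1.41, adjusted p = 8.02e-05). At 18 h it was 1.94-fold higher in tpt-2 (4.97 ± 0.80 against 9.63 ± 1.33 FPKM, SD, n = 3; log2 difference 0.83, SE 0.164, limma adjusted p = 0.0227). The call ended on leaving out Col-0 replicate 2 (adjusted p = 0.0927) or 3 (0.109) or tpt-2 replicate 2 (0.0842) or 3 (0.0577) at 18 h, and with quantile normalization (0.70, adjusted p = 0.0511). At 9 h the log2 difference was 0.21 (limma adjusted p = 0.386), and 0.41 without tpt-2 replicate 3 (adjusted p = 0.0573). The 2 genotype effects differed by 0.62 (SE 0.231, adjusted p = 0.146 by limma). The ratio of PIF4 to PIF5 was 1.22, 0.927 and 1.17 in Col-0 and 1.75, 1.78 and 2.0 in tpt-2 at 9 h, and 0.273, 0.176 and 0.0366 in Col-0 and 0.269, 0.482 and 0.409 in tpt-2 at 18 h. The genotypes' ratios did not overlap at 9 h but did at 18 h, when every library had less PIF4 than PIF5; the ratio was not tested.

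The same 300-base windows of the PIF pair are printed because the genes fell together in both genotypes, from chr2:17885801-17886100 (plus) for PIF4 and chr3:21830838-21831137 (minus) for PIF5 in TAIR10.1, with capitals as above.
PIF4: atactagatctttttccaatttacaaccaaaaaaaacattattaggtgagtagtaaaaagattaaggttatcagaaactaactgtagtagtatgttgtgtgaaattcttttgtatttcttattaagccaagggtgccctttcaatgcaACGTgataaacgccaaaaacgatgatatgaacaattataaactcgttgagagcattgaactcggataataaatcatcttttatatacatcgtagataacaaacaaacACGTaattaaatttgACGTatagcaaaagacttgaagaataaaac
PIF5: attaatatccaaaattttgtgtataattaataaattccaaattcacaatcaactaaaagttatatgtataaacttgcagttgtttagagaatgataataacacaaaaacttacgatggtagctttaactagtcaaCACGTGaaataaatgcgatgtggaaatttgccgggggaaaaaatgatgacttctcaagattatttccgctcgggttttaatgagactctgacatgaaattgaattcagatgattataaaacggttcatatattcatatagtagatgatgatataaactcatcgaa
PIF5 was the only one of the 10 genes with a G-box in its window, 165 to 160 bases before the start, where 7.09% of promoters hold one. PIF4 has 3 ACGT cores, starting 152, 45 and 30 bases before its start, none of them within a G-box. The evening element AAAATATCT occurred in 0 of the 10 windows and in 2.79% of promoters. GATACG or GATTCG, motifs bound by the evening-complex factor LUX, occurred in the windows of COP1 and CRY1 and in 14.3% of promoters.

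**Figure D3:**
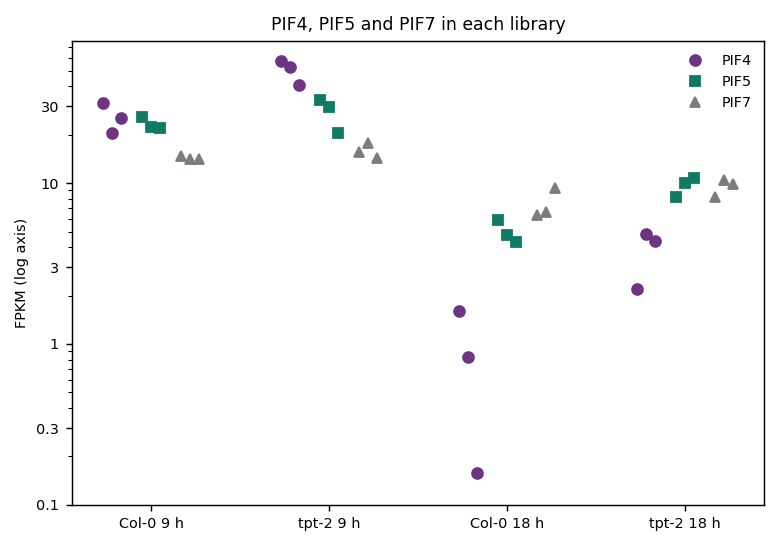
FPKM (log axis) of PIF4, PIF5 and PIF7 in each of the 12 libraries, drawn side by side within each group. PIF4 lies between 20.6 and 57.2 FPKM at 9 h and between 0.158 and 4.84 FPKM at 18 h, and it lies below PIF5 in every 18 h library and above it in all 9 h libraries but Col-0 replicate 2 (20.6 against 22.2 FPKM).

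PIF7, the shade-response factor (AT5G61270, chr5:24638491-24640765, minus strand), held 14.8, 14.1 and 14.2 FPKM in Col-0 and 15.7, 17.7 and 14.3 FPKM in the mutant at 9 h. At 18 h it held 6.37, 6.64 and 9.28 FPKM in Col-0 and 8.17, 10.5 and 9.81 FPKM in the mutant. It fell in both genotypes, by 0.88 on the log2 scale in Col-0 (limma adjusted p = 0.00047) and 1.68-fold in tpt-2 (log2 difference -0.69, adjusted p = 0.00269), with no overlap between harvests. Between the genotypes the log2 differences were 0.14 at 9 h and 0.32 at 18 h (adjusted p = 0.49 and 0.192 by limma). Exons of AT5G61260 on the opposite strand cover 16.3% of the PIF7 exon bases. The libraries were made with dUTP and carry strand information, but the strand setting used in counting is not given in the sources used here. How reads of such overlaps were counted, assigned to a gene or left out, is therefore not known.

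PIF1, which represses seed germination and chlorophyll synthesis in darkness (AT2G20180, chr2:8704024-8707009, minus strand), measured 7.33, 5.31 and 6.41 FPKM in Col-0 and 10.8, 11.3 and 8.65 FPKM in the mutant at 9 h. At 18 h the values were 6.58, 7.36 and 7.04 FPKM in Col-0 and 7.85, 6.62 and 7.42 FPKM in the mutant. The 3 tpt-2 libraries at 9 h lay above the other 9 libraries. PIF1 was 1.61-fold higher in tpt-2 at 9 h (6.35 ± 1.0 against 10.2 ± 1.41 FPKM, SD, n = 3; log2 difference 0.62, SE 0.123, limma adjusted p = 0.00471), a call made in all 21 other settings. At 18 h the log2 difference was 0.05 (95% interval -0.22 to 0.32, limma adjusted p = 0.843). In tpt-2 it fell by 0.43 on the log2 scale with time (limma adjusted p = 0.0244), a call lost without tpt-2 replicate 1 (0.079) or 2 (0.0913) at 9 h or tpt-2 replicate 2 at 18 h (0.0901). In Col-0 the log2 difference with time was 0.13 (limma adjusted p = 0.484), and the difference between the genotype effects was -0.56 (SE 0.174, adjusted p = 0.0895). Without tpt-2 replicate 3 at 9 h, the lowest of its group, it was -0.67 (limma adjusted p = 0.0462). Opposite-strand exons of AT2G20170 cover 5.72% of the PIF1 exon bases.

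PIF3, the first phytochrome-interacting factor described (AT1G09530, chr1:3075768-3079654, plus strand), was not called in any comparison. Libraries ranged from 4.41 to 5.70 FPKM in Col-0 and 5.58 to 6.18 FPKM in the mutant at 9 h, and from 4.52 to 5.17 FPKM in Col-0 and 5.05 to 7.06 FPKM in the mutant at 18 h. The genotypes overlapped at both harvests, with log2 differences of 0.20 and 0.28 (limma adjusted p = 0.268 and 0.213). Changes with time were -0.07 in Col-0 and 0.01 in tpt-2 (adjusted p = 0.71 and 0.956 by limma).

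Counting groups with no overlap between the genotypes gave CRY1, PIF1 and PIF4 at 9 h, 3 of 10 against 37.8% of all genes, and HY5, HYH, CRY1, PIF4 and PIF5 at 18 h, 5 of 10 against 29.0%. Between the harvests, 8 of 10 did not overlap in Col-0 against 43.6% of all genes, and 7 of 10 in tpt-2 against 38.0%. For the difference between the genotype effects, limma called 0 of the 10 genes, against 4.78% of all genes tested (2.43% higher and 2.35% lower). At an unadjusted p under 0.05, 4 of the 10 passed (HY5, CRY1, PIF1 and PIF5), and limma-voom called 1, CRY1. The median log2 difference of the 10 genes was 0.17 at 9 h and 0.12 at 18 h between the genotypes, against 0.07 and 0.09 over all genes.

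The order of the levels differed between the groups. In Col-0 at 9 h it ran from HYH (34.3 FPKM) through PIF4, HY5 and PIF5 to CRY1, SPA1, COP1, PIF7, PIF1 and PIF3 (5.09 FPKM); neighbours overlapped except PIF5 and CRY1, SPA1 and COP1, and PIF7 and PIF1. In tpt-2 at 9 h PIF4 led at 50.3 FPKM, without overlap with CRY1 at 32.6 FPKM. The next genes, PIF5, HYH, HY5 and SPA1, each overlapped the one before. At 18 h HYH led both genotypes without overlap, at 82.3 FPKM in Col-0 and 58.9 FPKM in the mutant. HY5 followed in Col-0 at 35.0 FPKM, also without overlap, whereas in tpt-2 CRY1 (30.6 FPKM) and SPA1 (26.7 FPKM) stood between HYH and HY5 (22.9 FPKM). PIF4 was last in both genotypes at 18 h, without overlap with PIF3.

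Of 10 genes that HY5 is known to activate 9 were tested. At 9 h 6 were called lower in tpt-2, 0 higher and 3 not called, with a median log2 difference of -1.01 against 0.07 over all genes. The shares over all genes were 8.72% lower and 13.6% higher. At 9 h HY5 stood at 24.2 ± 1.51 FPKM in Col-0 and 23.2 ± 6.32 FPKM in the mutant (SD, n = 3). HYH stood at 34.3 ± 9.97 and 25.0 ± 7.0 FPKM. Links between these levels and the targets were not tested, and HY5 protein was not measured. ELIP1, an early light-induced protein of the thylakoid, stood at 237 FPKM in Col-0 and 57.3 FPKM in the mutant (limma adjusted p = 0.00383). CHI, chalcone isomerase of flavonoid synthesis, stood at 105 and 36.5 FPKM (adjusted p = 0.000366 by limma). At 18 h 3 of the 9 were called lower and 6 not called, with a median of -0.87 against 0.09. Of all genes, 0.881% were called lower at 18 h. MYB12, the activator of flavonol genes, measured 5.62 FPKM in Col-0 and 2.0 FPKM in the mutant (limma adjusted p = 0.00397; with a pseudocount of 0.1 the call was lost). Leaving out Col-0 replicate 2 or 3 at 18 h ended the 18 h call of CHI (adjusted p = 0.0502 and 0.0516), and leaving out any of the 6 libraries of that harvest ended the call of ELIP1 (0.0609 to 0.145). From 9 h to 18 h, 8 of the 9 rose in Col-0 and 7 in tpt-2, with medians of 1.61 and 1.33 against -0.01 and 0.00 over all genes. Of all genes, 13.1% rose in Col-0 and 12.1% in tpt-2.

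B-box proteins act with or against HY5, and 9 of the 11 listed genes were tested. At 9 h 2 were called higher in tpt-2, BBX21 and BBX22, with 1.35-fold and 1.25-fold differences (limma adjusted p = 0.0297 and 0.0342), and in a fit of only the 9 h libraries 0 were called. The share called over all genes at 9 h was 22.3%, so 2 of 9 is near the background. With time, 3 rose and 3 fell in each genotype. Over all genes, 13.1% rose and 15.5% fell in Col-0, and 12.1% rose and 11.3% fell in tpt-2. BBX31 rose from 1.42 to 12.8 FPKM in Col-0 and from 0.553 to 8.87 FPKM in tpt-2 (adjusted p = 1.2e-05 and 7.84e-06 by limma). BBX32, a repressor of HY5 action, rose from 0.551 to 10.2 FPKM and from 0.693 to 7.29 FPKM (limma adjusted p = 1.15e-06 and 4.03e-06). BBX31 and BBX32 reached the filter of 1 FPKM only through the 18 h libraries. For both genes the filter thus favoured a call of a rise with time, and both are among the genes counted as rising. BBX28, which interferes with the binding of HY5 to DNA, fell 5.79-fold and 6.43-fold (adjusted p = 0.000359 and 0.000106 by limma).

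PIF targets and elongation genes were higher in tpt-2 where they were called. Of 15 listed genes 9 were tested, and at 9 h 5 were called higher and 0 lower, with a median log2 difference of 0.56 against 0.07 over all genes. The shares over all genes were 13.6% higher and 8.72% lower. EXPA8, an expansin that loosens cell walls, stood at 5.32 FPKM in Col-0 and 46.1 FPKM in the mutant (limma adjusted p = 0.00204). IAA29, an auxin-response repressor induced by PIFs, stood at 1.78 and 6.13 FPKM (adjusted p = 0.00743 by limma), and LNG1, which promotes lengthwise growth, at 3.02 and 5.89 FPKM (0.00222). With 0.217 and 0.954 FPKM at 18 h, IAA29 reached the filter of 1 FPKM only through the tpt-2 libraries at 9 h. For IAA29 the filter thus favoured a call in that direction. At 18 h 3 of the 9 were called higher, against 2.0% of all genes, with a median of 0.65 against 0.09. They were EXPA8 at 0.802 and 10.1 FPKM, IAA19 at 1.82 and 4.54 FPKM, and LNG1 at 2.0 and 3.71 FPKM (limma adjusted p = 0.0375, 0.0334 and 0.0298). All 3 calls at 18 h were lost without Col-0 replicate 2 (adjusted p = 0.128, 0.125 and 0.103), Col-0 replicate 3 (0.14, 0.11 and 0.131) or tpt-2 replicate 2 (0.108, 0.109 and 0.0918). Further losses came without Col-0 replicate 1 for EXPA8 (0.06) and IAA19 (0.0604), tpt-2 replicate 1 for IAA19 (0.0792), tpt-2 replicate 3 for EXPA8 (0.0685) and LNG1 (0.0687), and tpt-2 replicate 2 at 9 h for EXPA8 (0.055). The auxin synthesis gene YUC8, named after its values were seen, was under the filter, with 20, 17 and 6 fragments in Col-0 and 24, 30 and 22 in tpt-2 at 9 h, and 4, 1 and 1 against 11, 10 and 9 at 18 h. With time, 4 of the 9 fell and 0 rose in each genotype, with medians of -0.41 in Col-0 and -0.55 in tpt-2. Of all genes, 15.5% fell in Col-0 and 11.3% in tpt-2. IAA29 fell 8.19-fold in Col-0 (limma adjusted p = 0.0126) and 6.42-fold in tpt-2 (0.000986), and the filter also favoured the call of a fall in tpt-2. The Col-0 call was lost without Col-0 replicate 1 at 9 h (adjusted p = 0.0549).

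**Figure D4:**
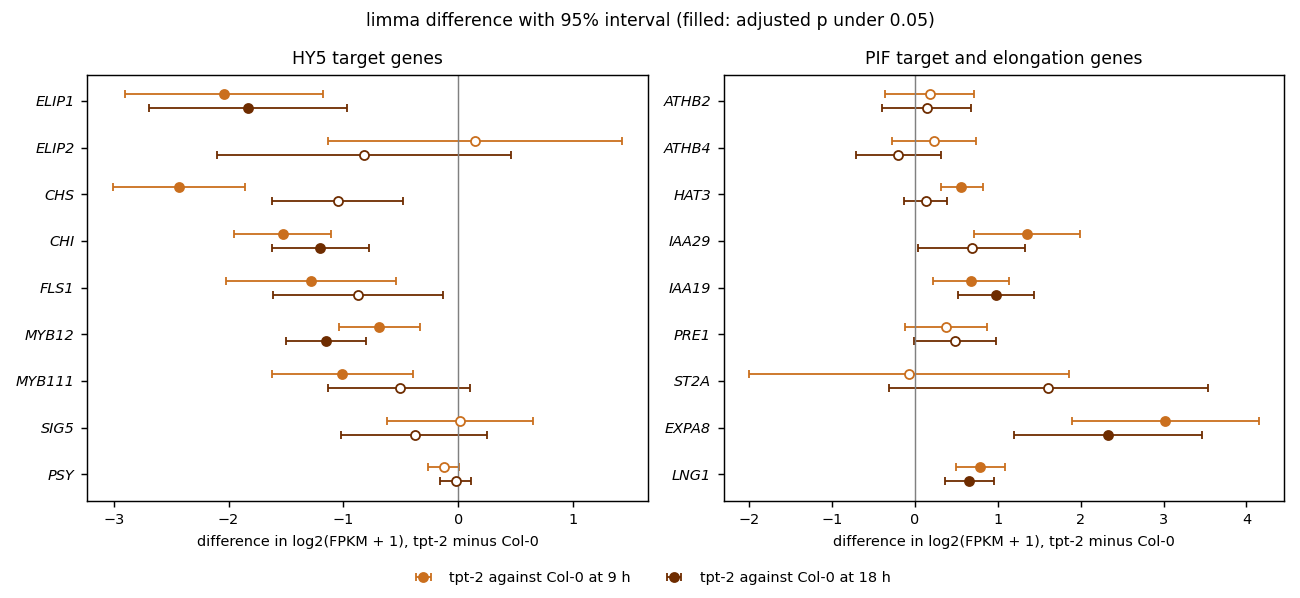
Differences between tpt-2 and Col-0 in log2(FPKM + 1) at 9 h and 18 h for the tested HY5 targets (left) and PIF targets and elongation genes (right), with 95% intervals from limma; filled points are called. All filled points lie below 0 for HY5 targets (CHI at -1.53 and -1.2) and above 0 for PIF targets and elongation genes (EXPA8 at 3.02 and 2.33).

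Among bHLH proteins that bind PIFs or resemble them, 6 of 9 were tested. At 9 h 3 were called higher in tpt-2, against 13.6% of all genes, and 0 were called lower at either harvest. The count at 9 h was 1 without tpt-2 replicate 1 or 3 at 9 h and 0 with a minimum of 5 FPKM, a mean that the 3 called genes do not reach. HFR1, which keeps PIFs from binding DNA, had 0.274, 0.737 and 0.253 FPKM in Col-0 and 5.52, 1.67 and 2.02 FPKM in the mutant at 9 h. Its groups did not overlap (limma adjusted p = 0.0134), and without tpt-2 replicate 1, the highest value, the adjusted p was 0.0507. HFR1 reached the filter of 1 FPKM only through the tpt-2 libraries at 9 h. Its other group means were 0.421 FPKM in Col-0 at 9 h, and 0.298 and 1.0 FPKM in Col-0 and tpt-2 at 18 h. The filter thus favoured a call in that direction. PIF8 rose 3.27-fold with time in Col-0 and 2.88-fold in tpt-2 (limma adjusted p = 5.7e-07 and 9.35e-07), the opposite direction to PIF4, PIF5 and PIF7. Of 8 listed genes of the evening complex and the phytochrome A pathway, 6 were tested. With time, 1 rose and 2 fell in Col-0, and 0 rose and 4 fell in tpt-2. Over all genes, 13.1% rose and 15.5% fell in Col-0, and 12.1% rose and 11.3% fell in tpt-2. In the evening complex, which represses PIF4 and PIF5 transcription, ELF4 fell 3.55-fold in Col-0 and 4.10-fold in tpt-2 with time. LUX fell 2.46-fold and 1.90-fold (limma adjusted p from 3.45e-06 to 3.04e-05 for both genes). ELF3, the scaffold of that complex, rose 1.17-fold with time in Col-0 (limma adjusted p = 0.0483) and fell 1.21-fold in tpt-2 (0.0259). Those 2 calls held in 9 and 16 of 21 other settings. Between the genotypes, 2 of the 6 genes were called at 9 h and 1 at 18 h, against 22.3% and 2.88% of all genes. ELF3 was 1.47-fold higher in tpt-2 at 9 h (limma adjusted p = 0.000665). LUX was 1.46-fold higher in tpt-2 at 18 h (adjusted p = 0.0143 by limma), a call lost without Col-0 replicate 2 (0.073) or 3 (0.0778) at that harvest.

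For members whose 4 group means spanned at least 1 on the log2(FPKM + 1) scale, the nuclear genes with the most similar profile were found by the root-mean-square difference of centred log2(FPKM + 1) over the 12 libraries. The nearest to PIF4, which spanned 4.84, were CAB3 (0.354), PRR7 (0.421) and GI (0.474), an antenna gene with near-identical copies and a pair of clock genes; with a pseudocount of 0.1, CAB3 was no longer among the nearest 3. PRR7 had group means of 36.2 FPKM in Col-0 and 42.8 FPKM in the mutant at 9 h and 2.17 and 4.21 FPKM at 18 h, and GI had 49.7, 54.7, 2.44 and 4.34 FPKM in that order. Nearest to PIF5 were PORB (0.216), LHCB3 (0.218) and AT3G50120 (0.219), only 1 of which was among the nearest 3 with a pseudocount of 0.1. HYH was nearest to GR1 (0.16), AT5G19850 (0.207) and TAT7 (0.212); GR1, a glutathione reductase, measured 40.1, 27.9, 86.1 and 72.3 FPKM in the same order of groups, and TAT7 dropped out with the smaller pseudocount. PIF7, with a span of 1.02, was nearest to AT4G27130 (0.144), AT1G19370 (0.154) and AT1G78930 (0.162), the last of which dropped out likewise.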

How the data were processed

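Per the submitters' processing notes, the build was TAIR10 and the tools included CASAVA, HISAT2 2.0.5, featureCounts 1.5.0-p3 and DESeq2 1.20.0; their settings are not given in the sources used here. The authors deposited 1 table of FPKM values for 32833 genes, and all 12 value columns matched a sample title. No counts were used as the main measure. A single depth per library and the mean annotated transcript length turned 99.5% to 99.6% of low values into whole fragments within 0.05. Of the identifiers, 32548 matched the RefSeq annotation of TAIR10.1, whose coordinates are given; the other 285 are organelle loci.

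log2(FPKM + 1) of the 17585 genes whose mean reached 1 FPKM was fitted in limma 3.58.1 (R 4.3.3) with the 4 groups as 1 factor, a mean-variance trend and two-sided Benjamini-Hochberg adjusted p-values over all genes tested. Alternatives were a pseudocount of 0.1, no filter, a minimum of 5 FPKM, median-ratio, quantile and nuclear-sum scaling, limma-voom on recovered fragments, only the libraries compared, a replicate block, and leaving out each library. The fit was also run on simulated data in which all genes shared the same spread between replicates and only tpt-2 at 9 h was changed. Its outcome is not given here, and no result above rests on it.

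The 10 genes and all gene lists were chosen with earlier results of these data known. From each other list, genes were named from the 4 largest called changes per comparison. The FPKM level of 3 fragments was computed for each of the 10 genes in each library as a floor, and no gene was removed by it. Protein sequences were not analysed here.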

Additional observations from a re-analysis of the deposited data

Results flagged for a closer look

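The genotype effect differed between 18 h and 9 h by the interaction test in limma for 4 of 63 listed genes tested, 6.35% against 4.78% of all genes, so the share is near the background; all 4 had the lower effect at 18 h. The differences in log2 effect were -0.42 for ZTL (adjusted p = 0.0493), -0.60 for COP10 (0.0355), -0.55 for BBX22 (0.0368) and -0.48 for ELF3 (0.0289). ZTL, a blue-light F-box receptor, measured 15.4 FPKM in Col-0 and 20.4 FPKM in the mutant at 9 h, and 19.8 and 19.3 FPKM at 18 h. COP10 measured 9.11 and 13.6 FPKM at 9 h, and 10.7 and 10.1 FPKM at 18 h. BBX22 measured 43.7 and 54.5 FPKM, then 14.3 and 11.9 FPKM, and ELF3 25.8 and 37.9 FPKM, then 30.2 and 31.4 FPKM. The 4 calls held in 6, 7, 11 and 12 of 20 other settings in the order ZTL, COP10, BBX22 and ELF3. Of the 12 fits that left out 1 library each, 1, 2, 3 and 5 kept them. Chloroplast-encoded transcripts were high in tpt-2 replicate 3 at 9 h, and without that library ELF3 was called and ZTL, COP10 and BBX22 were not.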

How the results depend on the processing

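Of 1040 values of the 10 genes under other settings, 959 kept both direction and side of the threshold, 16 passed it newly, 29 no longer passed and 36 changed sign, none of the latter past the threshold and all from a size of at most 0.09. The number of the 10 genes called at 18 h was 1 with no filter on low values and 0 to 3 when leaving out 1 library (0 without Col-0 replicate 2 or 3 or tpt-2 replicate 2 or 3 of that harvest). For the interaction it was 1 with a minimum of 5 FPKM, median-ratio, quantile or nuclear-sum scaling or limma-voom, CRY1 in each, and 0 to 2 when leaving out 1 library. Median-ratio scaling turned COP1 at 9 h to -0.01, SPA1 to -0.05 at 9 h and -0.04 at 18 h, and PIF1 at 18 h to -0.04. Quantile normalization turned COP1 at 9 h to 0.00, SPA1 to -0.02 at 9 h and -0.04 at 18 h, PIF1 at 18 h to -0.10, the SPA1 interaction to -0.02, and the tpt-2 time differences of HY5 to 0.00 and PIF3 to -0.01. The nuclear sum turned COP1 at 18 h to 0.01. When leaving out 1 library, genotype differences ranged from -0.28 to 0.09 for HY5, -0.05 to 0.14 for COP1 and -0.03 to 0.08 for SPA1 at 9 h, and from -0.06 to 0.05 for COP1 at 18 h. Interactions then ranged from -0.28 to 0.23 for HYH, -0.14 to 0.04 for COP1, -0.02 to 0.09 for SPA1 and -0.02 to 0.19 for PIF3, and time differences from -0.15 to 0.00 for PIF3 in Col-0, -0.17 to 0.21 for HY5 in tpt-2 and -0.09 to 0.12 for PIF3 in tpt-2. The cause of these shifts was not tested.

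With the replicate number as a block, 2 of the 10 genes were called at 9 h, 2 at 18 h, 0 for the interaction, 7 in Col-0 and 6 in tpt-2; PIF4 was not called at 9 h (adjusted p = 0.0555) or 18 h (0.0547), and HY5 was called at 18 h (0.0466). Over all genes the block gave 293 against 507 at 18 h and 394 against 841 for the interaction. Deviations from the group means correlated from -0.261 to 0.135 for same-numbered libraries and from -0.191 to 0.234 for differently numbered ones. These values do not show that the numbers pair the samples. With 3 libraries per group they cannot show that pairing was absent. Without a filter, 335 genes were called at 18 h, and leaving out 1 library gave 107 to 577. The share of calls higher in tpt-2 was 60.8% at 9 h and 69.4% at 18 h, against 41.0% and 35.8% with median-ratio scaling and 47.6% and 40.9% with quantile normalization. Counts of listed genes moved too: with only the libraries compared, 3 HY5 targets were called at 9 h against 6, and 6 at 18 h against 3. With a minimum of 5 FPKM, 2 PIF target and elongation genes were called at 9 h against 5, and at 18 h 0 were called with no filter or quantile normalization against 3. Leaving out 1 library gave 1 to 4 HY5 targets and 0 to 3 PIF target and elongation genes at 18 h. PIF4 at 18 h in Col-0 rests on 4 to 84 fragments per library, which limits its fold.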
